A study of Mus musculus with 6 samples.

Results

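Chemokines are small secreted proteins that guide migrating cells along gradients, and each class is named for the spacing of its conserved cysteines (CC, CXC, CX3C or XC). They act on G protein-coupled receptors of leukocytes and other cells, while atypical receptors bind them without the usual signal and clear them. Mesenchymal cells of injured muscle are a known source of chemokines that draw neutrophils and monocytes into the tissue, and of Cxcl12, which retains and positions cells. The members described here were chosen by symbol alone, as every gene of the count table named Ccl, Cxcl, Cx3cl or Xcl with a number and at most 1 letter. There were 41 such genes among 41388, under 39 symbols because 3 copies are called Ccl21c. They comprised 26 CC genes, 13 CXC genes, 1 CX3C gene and 1 XC gene.

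The libraries came from primary fibro-adipogenic progenitors, the mesenchymal cells of skeletal muscle, of wild-type male mice. Cells were kept in serum-containing medium with human FGF and received vehicle in 3 libraries or 500 nM prostaglandin E2 (PGE2) in 3 libraries, once per day for 2 days. Polyadenylated RNA was read as 100-base paired ends. The labels do not state that each library is its own mouse or culture. The p-values therefore describe the spread of these 6 samples alone, part of which may be technical. Library totals ran from 21006044 to 52730962 counts, and 3 counts equalled 0.0581 to 0.142 CPM (counts scaled to library size, here by trimmed means). The 8 progenitor markers summed to 5060 to 7467 CPM with vehicle and 5164 to 9546 CPM with PGE2, among them Pdgfra at 1121 to 1455 CPM, while Lum was only at 4.00 to 14.2 CPM. The fit called the paired fit pairs same-numbered libraries (edgeR, adjusted p under 0.05). In it Ly6a and Thy1 rose (0.62 and 0.73 on the log2 scale) and Cd34 and Lum fell (-0.59 and -0.66). Of all genes 6.91% rose and 7.51% fell in that fit. Unpaired, 0 of these 8 markers passed in either direction. DESeq2 called Ly6a and Thy1 higher and 0 markers lower (2.86% and 3.27% of all genes). Pairing combined with a correction for transcript length gave 3 rises and 2 falls (8.82% and 7.97% of all genes).

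Promoters are shown first for 5 genes, because 4 of them carried or shared the response described below and the other, Cxcl2, is their near-silent neighbour. Each line is the 250 bases before the RefSeq transcript start on GRCm38.p6, the assembly also called mm10, written 5′ to 3′ on the gene's own strand. Capitals mark matches, on either strand, to the motifs listed after the sequences. RefSeq promoters matched 27 of the 39 symbols.
Cxcl1 (chr5:90890995-90891244, plus strand): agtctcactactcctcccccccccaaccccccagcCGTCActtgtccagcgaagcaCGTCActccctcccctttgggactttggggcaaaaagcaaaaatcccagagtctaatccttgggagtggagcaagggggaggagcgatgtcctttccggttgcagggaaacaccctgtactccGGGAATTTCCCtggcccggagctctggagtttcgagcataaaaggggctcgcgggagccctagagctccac
Cxcl3 (chr5:90785851-90786100, plus strand): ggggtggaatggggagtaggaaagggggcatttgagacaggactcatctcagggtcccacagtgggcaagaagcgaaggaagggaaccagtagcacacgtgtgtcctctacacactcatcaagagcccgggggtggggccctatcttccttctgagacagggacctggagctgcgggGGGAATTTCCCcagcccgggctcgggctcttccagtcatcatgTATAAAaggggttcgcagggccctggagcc
Cxcl2 (chr5:90903649-90903898, plus strand): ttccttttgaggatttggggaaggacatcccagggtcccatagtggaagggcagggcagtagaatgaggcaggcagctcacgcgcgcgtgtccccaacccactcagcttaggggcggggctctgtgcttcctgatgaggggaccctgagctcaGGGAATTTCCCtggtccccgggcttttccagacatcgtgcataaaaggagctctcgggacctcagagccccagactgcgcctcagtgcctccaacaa
Ccl9 (chr11:83578637-83578886, minus strand): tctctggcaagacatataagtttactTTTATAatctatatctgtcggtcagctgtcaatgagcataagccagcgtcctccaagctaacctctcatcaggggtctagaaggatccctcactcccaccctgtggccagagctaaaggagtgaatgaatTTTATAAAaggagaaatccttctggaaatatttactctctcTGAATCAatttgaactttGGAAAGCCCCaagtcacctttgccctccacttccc
Cxcl14 (chr13:56296552-56296801, minus strand): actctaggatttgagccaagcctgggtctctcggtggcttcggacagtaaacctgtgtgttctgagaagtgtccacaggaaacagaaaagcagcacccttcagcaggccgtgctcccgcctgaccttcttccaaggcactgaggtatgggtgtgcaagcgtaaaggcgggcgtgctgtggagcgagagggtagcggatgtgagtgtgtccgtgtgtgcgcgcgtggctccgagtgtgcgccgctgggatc

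The motifs searched were the NF-kappaB consensus, the cyclic AMP response element TGACGTCA, its shorter form TGACG, the C/EBP form TTGCNNAA, the AP-1 form TGANTCA and the TATA box TATAAA. The shorter form is contained in the full response element, so those counts overlap. Cxcl1, Cxcl3 and Cxcl2 each held the run GGGAATTTCCC, which matches the NF-kappaB consensus on both strands, starting 71, 73 and 97 bases before the start. Cxcl1 also held the shorter element at 215 and 194 bases before its start, and Cxcl3 a TATA match 30 bases before its start. Ccl9 had a different match, GGAAAGCCCC, 35 bases before its start, an AP-1 match and 3 TATA matches. Its TATA matches starting 94 and 92 bases before the start overlap on opposite strands, in the run TTTATAAA. Cxcl14 had no match to any of the motifs in this window. Among 32851 promoters of this length, 3.9% held an NF-kappaB match, 17.8% the shorter element, 1.55% the full one, 9.56% the C/EBP form, 6.75% the AP-1 form and 12.4% a TATA match. Cxcl2, with the same run, had at most 3 counts per library. NF-kappaB matches were also present in ligand promoters that are not shown. Cxcl10, which did not pass in either fit, held GGGAAATTCC, GGGACTTCCC and an AP-1 match. Ccl20, too scarce to test, held GGAAAACCCC. Ccl8, Cx3cl1 and Cxcl9, which were also called in the paired fit, each held a TATA match and no NF-kappaB match. No promoter was at hand for Cxcl5 and Ccl7, the other ligands called in that fit. A match is a description of letters and not evidence of a bound factor.

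A minority of the family was expressed in these cultures. Of the 41 genes 12 were at 0 in every library, 10 had counts but too few to test, and 19 passed the filter on low counts. Those at 0 were Ccl1, Ccl19, Ccl21a, Ccl21b, the 3 copies of Ccl21c, Ccl22, Ccl26, Ccl27b, Cxcl15 and Xcl1, where up to 3 counts, or 0.142 CPM in the shallowest library, cannot be told from none. Cxcl13, Ccl17, Ccl24, Cxcl2, Ccl4, Ccl12, Cxcl17, Ccl20, Ccl3 and Cxcl11 had between 1 and 18 counts over all 6 libraries and no more than 9 in any of them. Of the tested genes 16 averaged at least 1 CPM, 10 at least 10 CPM and 4 at least 100 CPM. Cxcl3 reached the filter level of 0.236 CPM in all 3 PGE2 libraries but in 1 vehicle library, so it was tested through the group where it was high. Each of the other 18 reached it in all 6 libraries.

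Cxcl12, the ligand of Cxcr4 and Ackr3, was the most abundant ligand by far. Per kilobase of its longest transcript it stood at 328 ± 110 in vehicle and 399.8 ± 143 in PGE2 libraries (RPKM, SD, n = 3 each). Ccl7 and Ccl2, which attract monocytes through Ccr2, followed in vehicle libraries at 126 ± 13.2 and 87.0 ± 24.2 RPKM, and then Cxcl14 at 67.3 ± 7.79, Ccl11 at 35.3 ± 10.1, Ccl9 at 33.2 ± 7.17 and Cxcl5 at 29.1 ± 6.70 RPKM. The ranges of Ccl2 and Cxcl14 touched within 1 SD, as did those of Ccl11, Ccl9 and Cxcl5, and the order within each library was not compared. With PGE2 the order behind Cxcl12 was Cxcl14 at 207 ± 68.2, Ccl7 at 152 ± 23.4, Ccl2 at 89.7 ± 32.8, Cxcl5 at 71.7 ± 18.5 and Ccl9 at 67.6 ± 20.3 RPKM. The ranges of Cxcl14 and Ccl7 touched within 1 SD, as did those of Ccl2, Cxcl5 and Ccl9.

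**Figure D1:**
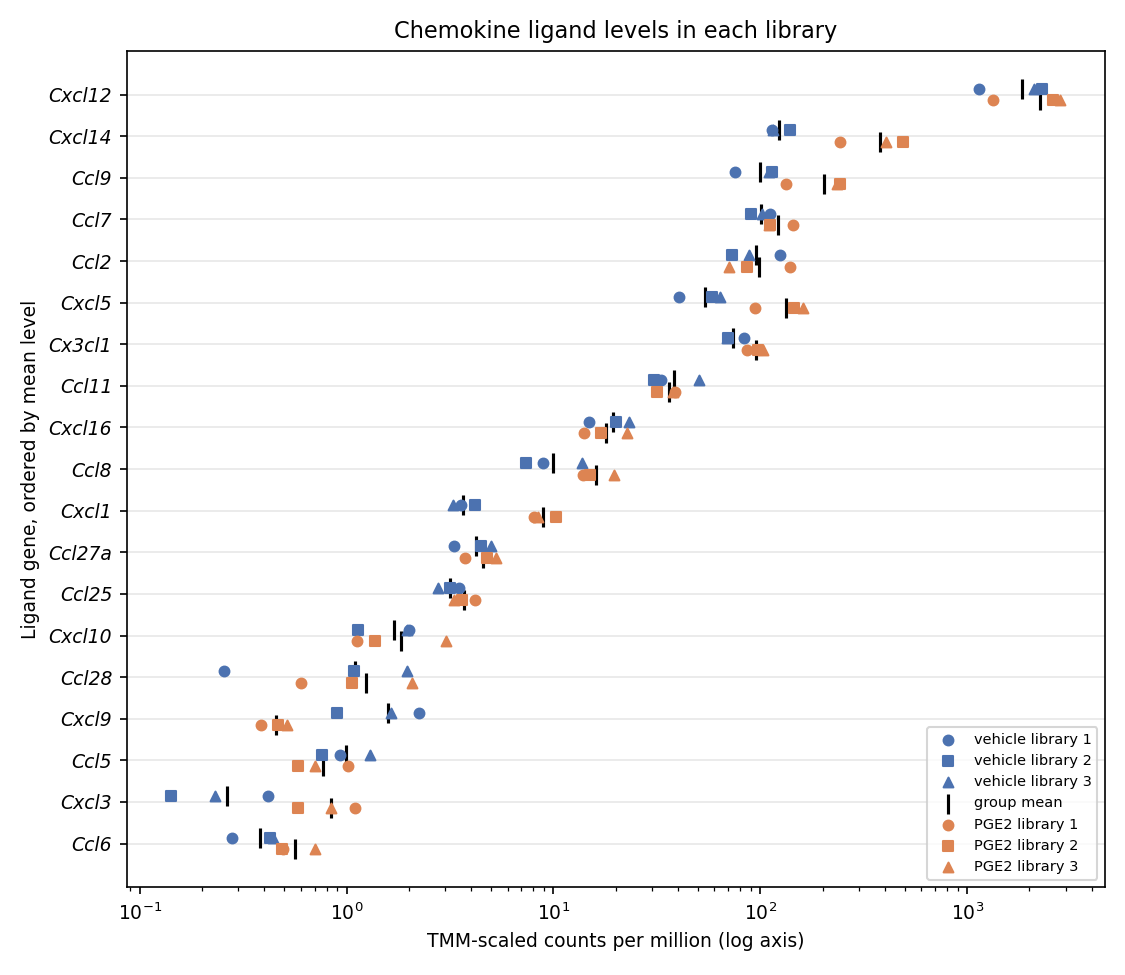
Level of each tested chemokine ligand gene in each library, in trimmed-mean scaled CPM on a log axis; symbols are libraries 1 to 3, colours are groups and black bars are group means (n = 3). Cxcl12 lies between 1143 and 2820 CPM, and the PGE2 points of Cxcl14, Ccl9, Cxcl5, Cxcl1 and Cxcl3 all lie to the right of their vehicle points.

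The comparison of PGE2 with vehicle addresses which ligand genes of these progenitors change with the prostaglandin. Cxcl1 passed the test across all genes, 1 higher and 0 lower of 19 tested ligands (5.26% and 0%), against 0.211% of 15186 genes higher and 0.132% lower (edgeR quasi-likelihood, Benjamini-Hochberg, threshold 0.05). At an unadjusted p under 0.05, 7 ligands were higher and 1 was lower, where 1517 and 1532 of the 15186 genes were, and DESeq2 had 5 higher and 1 lower against 2.86% and 3.27% of all genes, with no adjusted p for 3 ligands. In the paired fit 8 of 19 rose (42.1%) and 1 fell (5.26%), against 6.91% and 7.51% of all genes. The tested ligands had a median log2 fold change of 0.267, where all genes had -0.001. In 8 ligands every PGE2 library lay above every vehicle library (42.1%), as in 13.7% of all genes, and in 1 every PGE2 library lay below (5.26%), as in 12.2%. Cxcl3 is among the higher ligands in the unadjusted, paired and non-overlap counts. It entered the test through its PGE2 libraries, so these counts include a gene selected for its PGE2 level.

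The paired fit rests on correlations seen in the data, since the labels do not say that equal numbers share a mouse or day. Fold changes also followed transcript length across all genes (rank correlation -0.408), and 15 of the 19 ligands had a longest transcript under the median of 3200 bases. With a correction for length, 0 ligands passed unpaired (6 higher and 1 lower at an unadjusted p under 0.05, as were 1330 and 1160 of all genes), against 0.0593% of all genes higher and 0.0395% lower, and 7 rose and 1 fell in the paired fit, against 8.82% and 7.97% of all genes. Of the 9 ligands called in the paired fit 7, Cxcl3 among them, were also called with that correction. Cxcl14 and Ccl7 were not, and Cxcl12 was added.

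**Figure D2:**
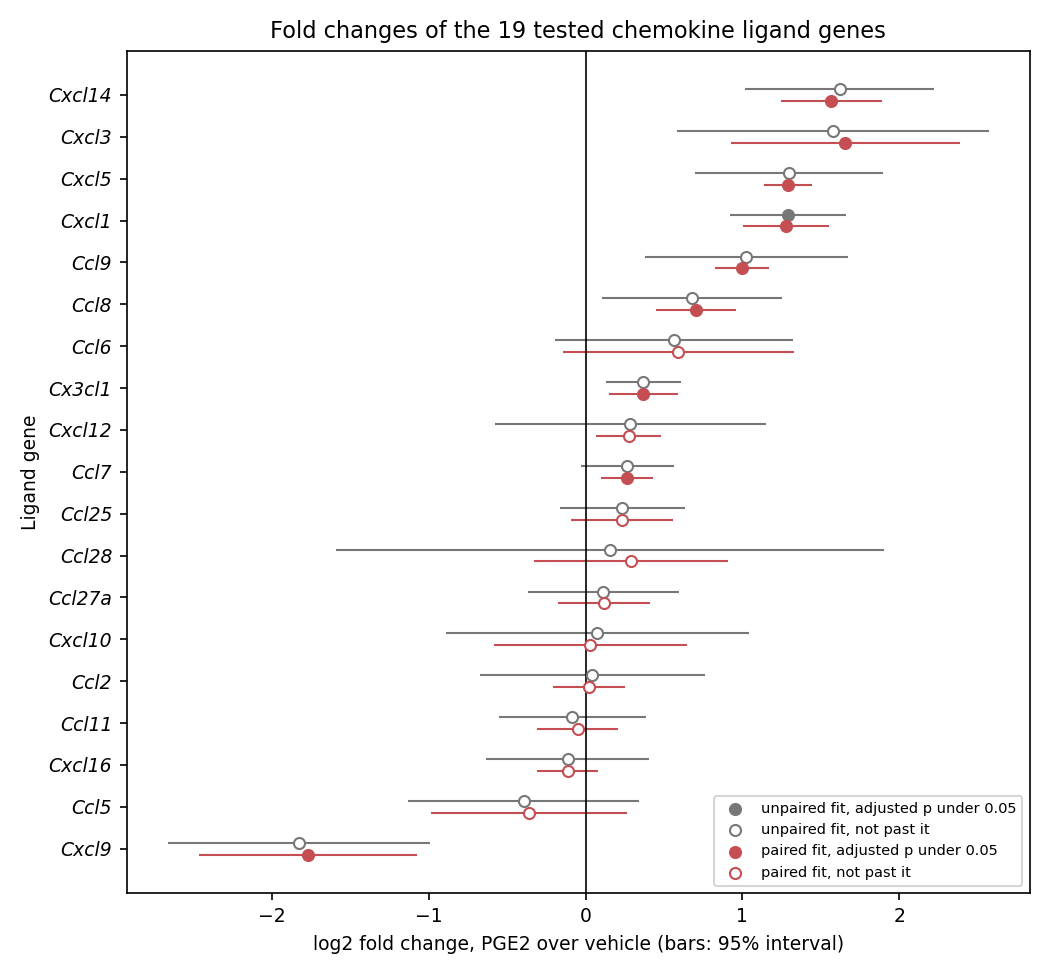
Log2 fold change of PGE2 over vehicle for the 19 tested ligand genes with 95% intervals calculated from edgeR's F statistic, in the unpaired fit (grey) and the paired fit (red), filled where the adjusted p is under 0.05. Cxcl1 alone is filled in grey, and 9 genes are filled in red, of which Cxcl9 lies left of 0.

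Among neutrophil-attracting CXC chemokines, Cxcl1 and Cxcl5 were higher in all 3 PGE2 libraries than in any vehicle library, as were 13.7% of all genes. These chemokines carry the glutamate-leucine-arginine motif before the cysteines and act on Cxcr2, and in mouse Cxcl5, Cxcl3, Cxcl15, Cxcl1 and Cxcl2 lie together within 147 kb of chromosome 5 (90759360 to 90905938). Of these 5 genes Cxcl1, Cxcl5 and Cxcl3 were tested. Cxcl1 and Cxcl5 rose in the paired fit, by 1.28 and 1.29 on the log2 scale, and Cxcl3, which entered the test through its PGE2 libraries, is given apart from them.

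Cxcl1 (ENSMUSG00000029380, 90891241 to 90893115 on chromosome 5) was at 3.58, 4.16 and 3.26 CPM in vehicle libraries 1 to 3 and at 8.09, 10.3 and 8.40 CPM in PGE2 libraries 1 to 3. The lowest PGE2 library was thus nearly double the highest vehicle library, and the level was alike across libraries of a group. The fold change was 1.29 ± 0.158 on the log2 scale, or 2.45-fold (edgeR adjusted p = 0.0402; 95% interval 0.92 to 1.66). The paired fit gave 1.28 ± 0.123 (edgeR adjusted p = 0.000182). The unpaired call was lost without any 1 of the 3 vehicle libraries, PGE2 library 2 or PGE2 library 3 (edgeR adjusted p between 0.0524 and 0.236), with the fold change between 1.18 and 1.38 over the 6 omissions. With the length correction it was 1.18 (edgeR adjusted p = 0.0554).

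Cxcl5 (ENSMUSG00000029371, 90759360 to 90761624) was far more abundant, at 40.2, 58.6 and 64.1 CPM with vehicle and 94.6, 146 and 160 CPM with PGE2. Library 1 was the lowest in each group, and the groups did not overlap. The difference between same-numbered libraries was almost constant, at 1.23, 1.32 and 1.32 on the log2 scale of CPM plus 0.05. The paired fit called a rise of 1.29 ± 0.070 (edgeR adjusted p = 3.7e-05), while the unpaired fit, at 1.30 ± 0.249, did not pass (0.0961). Cxcl3 (90786103 to 90789600) was scarce, at 0.418, 0.142 and 0.231 CPM with vehicle and 1.10, 0.581 and 0.843 CPM with PGE2. These are 3 to 18 and 30 to 51 counts, and the vehicle library at 3 counts sits at its detection limit. The paired fit called Cxcl3 at 1.66 ± 0.330 (edgeR adjusted p = 0.0101), and the unpaired fit did not, at 1.58 ± 0.427 (0.133). Reads of Cxcl1, Cxcl2 and Cxcl3 can be shared between these related genes by some counters, and how the authors counted them is not given in the sources used here. Both Cxcr1 and Cxcr2, the receptors of these ligands, had at most 2 counts in any library.

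Cxcl14 had the highest fold change of the ligands above 1 CPM. It is a CXC chemokine without the neutrophil motif that many stromal and epithelial tissues make constitutively. Cxcl14 (ENSMUSG00000021508, chromosome 13, 56288643 to 56296551) was at 114, 139 and 116 CPM with vehicle and 243, 488 and 404 CPM with PGE2. The vehicle libraries were close together, whereas PGE2 library 1 was well under the other two. It was 3.08-fold higher by the unpaired fit, at 1.62 ± 0.252 on the log2 scale, which did not pass (edgeR adjusted p = 0.0669; 95% interval 1.02 to 2.23). The paired fit called it at 1.57 ± 0.140 (edgeR adjusted p = 0.00045), as did DESeq2 (1e-09), but the call was lost in the length-corrected paired fit (1.46, adjusted p = 0.0576) or without the libraries numbered 3 (1.44, adjusted p = 0.227).

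Cxcl12 (ENSMUSG00000061353, chromosome 6, 117168535 to 117181367) was at 1143, 2292 and 2102 CPM with vehicle and 1328, 2601 and 2820 CPM with PGE2. The groups overlapped, and the spread between numbers was larger than that between treatments, with library 1 the lowest in each group. Myogenic markers were highest in those same 2 libraries, at 226 and 154 CPM summed over 9 genes against 23.1 to 73.6 CPM in the other 4, and their part in the level of Cxcl12 was not tested. That sum was also lower with PGE2 at each library number, and 5 of the 7 tested myogenic markers fell in the paired fit (7.51% of all genes did), as did 3 of 6 pericyte, 2 of 3 Schwann and 1 of 5 endothelial markers. In the unpaired fit 0 of each list fell. DESeq2 had 0 myogenic, 1 pericyte, 1 Schwann and 0 endothelial markers lower (3.27% of all genes). With the length correction the paired fit had 2, 1, 2 and 1 lower in that order (7.97% of all genes). The part of these shifts in the ligand changes was not tested. The fold change of 0.29 ± 0.360 did not pass (edgeR adjusted p = 0.696; 95% interval -0.58 to 1.15), nor did the paired value of 0.27 ± 0.095 (0.0781). It passed in the length-corrected paired fit, at 0.39 (edgeR adjusted p = 0.0016). In bulk RNA, fewer cells that make a transcript and less of it per cell cannot be told apart, which holds for every ligand here.

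The monocyte-attracting CC genes lie with the eosinophil chemokine Ccl11 within 81.2 kb of chromosome 11 (82035571 to 82116799). Whether their changes differ from each other was not tested. Of Ccl2, Ccl7, Ccl8 and Ccl12 the first 3 were tested, and 0 passed unpaired or by DESeq2. At an unadjusted p under 0.05, 1 was higher, as were 1517 of the 15186 genes. Ccl7 and Ccl8 rose in the paired fit, as did 6.91% of all genes.

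Ccl8 was at 8.90, 7.38 and 13.7 CPM with vehicle and 13.8, 15.0 and 19.6 CPM with PGE2, with the highest vehicle and the lowest PGE2 library almost equal. Its rise in the paired fit was 0.71 ± 0.115 (edgeR adjusted p = 0.00347), against 0.68 ± 0.244 unpaired (0.194). Ccl7 was at 111, 90.02 and 102 CPM and then 143, 111 and 110 CPM, so that its groups overlapped slightly. The paired rise was only 0.26 ± 0.075 (edgeR adjusted p = 0.041), and with the length correction it was 0.07 (0.39). The paired call of Ccl7 was also lost without the libraries numbered 1 (0.277) or numbered 2 (0.24).

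Ccl2, the main monocyte chemoattractant, was at 125, 73.2 and 88.1 CPM with vehicle and 139, 85.8 and 70.2 CPM with PGE2. Both groups spanned nearly the same range, and library 1 was the highest in each. The fold change was 0.04 ± 0.299 (edgeR adjusted p = 0.952) with a 95% interval of -0.68 to 0.76, or -0.21 to 0.25 in the paired fit. Its direction was not settled, since it was at -0.14 with the length correction and at -0.29 without PGE2 library 1. Paired without the libraries numbered 3 it passed at 0.18 (edgeR adjusted p = 0.0177). Ccl11 was at 33.1, 30.7 and 50.7 CPM and then 38.8, 31.8 and 37.8 CPM. All its PGE2 values lay within the vehicle range, with a fold change of -0.08 ± 0.197 (edgeR adjusted p = 0.844; 95% interval -0.55 to 0.38).

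A second group of CC genes, Ccl5, Ccl9, Ccl6, Ccl3 and Ccl4, lies within 139 kb further along chromosome 11 (83525778 to 83664683), and in it Ccl9 was the abundant gene. Ccl9 is a mouse ligand of Ccr1. Ccl9 (ENSMUSG00000019122, 83572919 to 83578636) was at 75.2, 114 and 110 CPM with vehicle and 133, 242 and 235 CPM with PGE2. The groups did not overlap, and library 1 was the lowest in each. The paired fit called a rise of 1.00 ± 0.078 (edgeR adjusted p = 5.9e-05), and the unpaired value of 1.03 ± 0.270, or 2.04-fold, did not pass (0.137). Its neighbour Ccl6 was at 0.279 to 0.439 CPM with vehicle and 0.484 to 0.707 CPM with PGE2, which are 9 to 26 counts, and did not pass in either fit (0.56 ± 0.326, edgeR adjusted p = 0.373; paired 0.256). Ccl5, which attracts T cells and monocytes, was at 0.757 to 1.29 CPM with vehicle and 0.581 to 1.01 CPM with PGE2, and its value of -0.40 ± 0.317 did not pass (edgeR adjusted p = 0.52). Ccl3 and Ccl4 had at most 2 counts in any library.

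Ccl9 and Ccl6 are also known as products of macrophages, and the summed level of macrophage and leukocyte markers was a little higher with PGE2. Summed over 9 of them, the level was 9.88 to 10.7 CPM with vehicle and 12.8 to 13.3 CPM with PGE2, most of it from Cd14. Of the 4 tested markers 2, Cd14 and Csf1r, rose in the paired fit, as did 6.91% of all genes. In the unpaired fit 0 passed, and 3 of the 4 had a positive fold change. DESeq2 had 1 higher (2.86% of all genes), as did the length-corrected paired fit (8.82% of all genes). The part of these cells in the levels of Ccl9 and Ccl6 was not tested. The pan-leukocyte gene Ptprc was at 0 in every library, as were Cd3e and S100a9, and Itgam and S100a8 reached at most 5 and 7 counts. Csf1r was between 0.71 and 2.07 CPM.

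Cxcl9 was the ligand that fell. It belongs with Cxcl10 and Cxcl11 to the interferon-induced ligands of Cxcr3, which attract activated T cells. Cxcl9 (ENSMUSG00000029417, chromosome 5, 92321347 to 92328079) was at 2.23, 0.899 and 1.64 CPM with vehicle and 0.388, 0.465 and 0.517 CPM with PGE2. The 3 PGE2 libraries were tightly grouped under every vehicle library, at 18 to 24 counts against 19 to 96. The paired fit called a fall of -1.77 ± 0.315 (edgeR adjusted p = 0.00566), as did DESeq2 (0.00221), and the unpaired value of -1.83 ± 0.359 did not pass (0.093).

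Cxcl10, from the adjacent locus (92346638 to 92348889), did not follow it. Cxcl10 was at 2.00, 1.14 and 1.96 CPM with vehicle and 1.12, 1.38 and 3.02 CPM with PGE2, and same-numbered libraries differed by -0.81, 0.27 and 0.61 on the log2 scale. Its fold change was 0.08 ± 0.413 (edgeR adjusted p = 0.938; 95% interval -0.89 to 1.04), and Cxcl11 had 1 count in all. Cxcl10 shares 133 exonic bases with Art3 on the opposite strand, so some of its counts may belong to that gene if strand was not used. Of 14 other interferon response genes 0 passed unpaired in either direction, and 1 fell in the paired fit (7.14%, near the 7.51% of all genes). At an unadjusted p under 0.05, 0 were higher and 3 lower, where 1517 and 1532 of the 15186 genes were. DESeq2 had 0 higher and 3 lower (21.4%, against 3.27% of all genes). In 3 every PGE2 library lay below every vehicle library (21.4%, against 12.2%). The list's median log2 fold change was -0.48, and 1 of the 14 genes had a positive fold change. Their summed level was 931, 483 and 727 CPM with vehicle and 405, 516 and 572 CPM with PGE2, highest in vehicle library 1 like Cxcl9, and its part in the fall of Cxcl9 was not tested. Ifit2, which encodes an interferon-induced RNA-binding protein, fell in the paired fit (-0.74, edgeR adjusted p = 0.00072). Ifit3, Ifit1 and Rsad2 were at -1.49, -1.02 and -0.91 and did not pass in either edgeR fit. DESeq2 called Ifit3 and Ifit1 lower (DESeq2 adjusted p = 5.2e-05 and 0.0261), and Rsad2 did not pass in it (0.192).

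**Figure D3:**
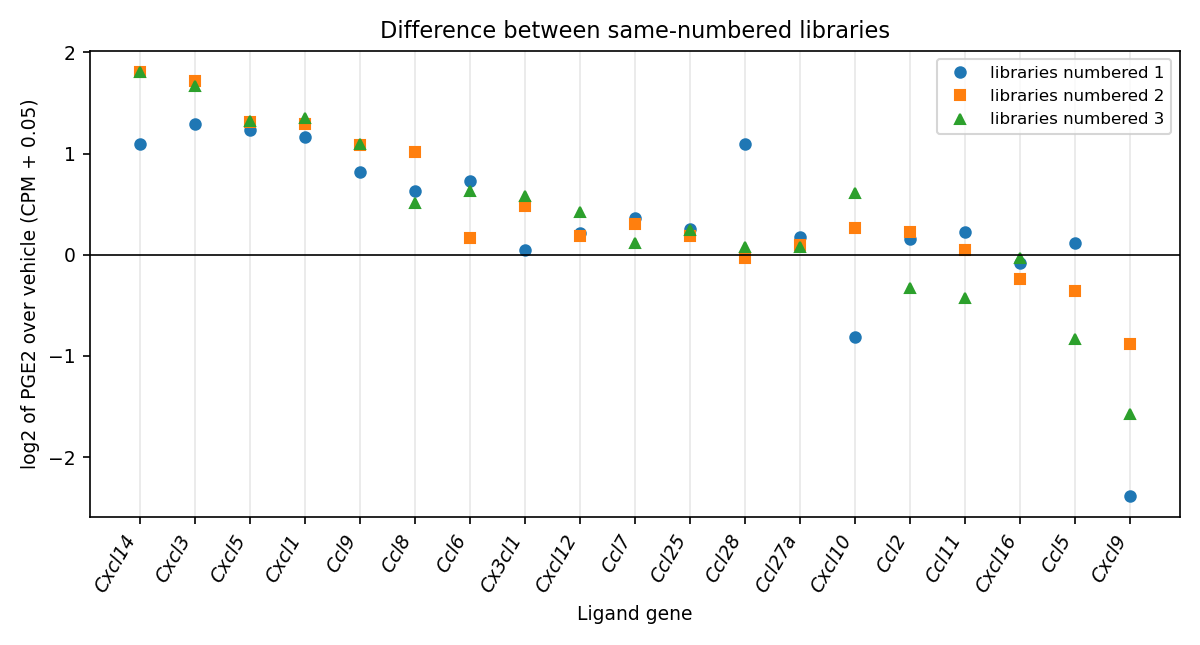
Difference between the PGE2 and the vehicle library of the same number for each tested ligand gene, as log2 of CPM plus 0.05, ordered by unpaired fold change. Cxcl5 is almost the same in all 3 (1.23, 1.32 and 1.32), whereas Cxcl10 runs from -0.81 to 0.61 and Ccl28 from -0.03 to 1.09.

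The 2 ligands made as membrane-anchored proteins, which can hold leukocytes on a cell surface or be shed, behaved differently in the paired fit. Cx3cl1 (fractalkine, the ligand of Cx3cr1) was at 83.3, 70.0 and 68.7 CPM with vehicle and 86.2, 97.9 and 102.5 CPM with PGE2. The groups just failed to overlap, and libraries numbered 1 differed by only 0.05 on the log2 scale, against 0.48 and 0.58 for the other numbers. Its rise in the paired fit was 0.37 ± 0.099 (edgeR adjusted p = 0.0344), lost without the libraries numbered 2 (0.0917) or numbered 3 (0.0631), and the unpaired value did not pass (0.37 ± 0.103, 0.138). Cxcl16 was at 14.8, 20.1 and 23.1 CPM and then 13.97, 17.0 and 22.6 CPM. These values overlapped almost fully, and -0.11 ± 0.220 did not pass (edgeR adjusted p = 0.808; paired 0.414). Cxcl16 shares 552 of 3021 exonic bases with Zmynd15 on the opposite strand. Whether the changes of Cx3cl1 and Cxcl16 differ from each other was not tested.

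Ligands best known from epithelium and lymphoid tissue were low and had 0 of 3 tested members past the threshold in the unpaired and the paired fit and by DESeq2, and 0 at an unadjusted p under 0.05. Ccl27a was at 3.30, 4.45 and 4.97 CPM with vehicle and 3.75, 4.75 and 5.25 CPM with PGE2. Ccl25, a thymus and gut chemokine, was at 3.49, 3.17 and 2.77 CPM and then 4.18, 3.60 and 3.29 CPM. Their groups overlapped, with fold changes of 0.11 ± 0.207 and 0.23 ± 0.171. Ccl28 was at 0.256, 1.09 and 1.96 CPM with vehicle and 0.603, 1.07 and 2.07 CPM with PGE2. It followed the library number and not the treatment, with a fold change of 0.16 ± 0.732 (edgeR adjusted p = 0.925; 95% interval -1.59 to 1.91). Ccl25 shares 204 exonic bases with Elavl1, and Ccl27a 8 with Il11ra1, each on the opposite strand, and Ccl27a and Ccl27b are near-identical copies.

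As a share of all counts, the 41 ligands together made up 0.181%, 0.293% and 0.279% of vehicle libraries 1 to 3 and 0.229%, 0.378% and 0.386% of PGE2 libraries 1 to 3. The groups overlapped, because Cxcl12 supplied 58.9% to 78.7% of ligand counts and varied with the library number. Without Cxcl12 the share was 0.0637%, 0.0624% and 0.0664% with vehicle and 0.0939%, 0.123% and 0.114% with PGE2. That remainder was therefore nearly constant in vehicle libraries and higher in each PGE2 library, with 0.0642 ± 0.00203% and 0.111 ± 0.0150% (SD, n = 3 each). Ccl9 alone made up 3.93% to 4.26% of ligand counts with vehicle and 5.86% to 6.28% with PGE2. No test was made of these sums.

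**Figure D4:**
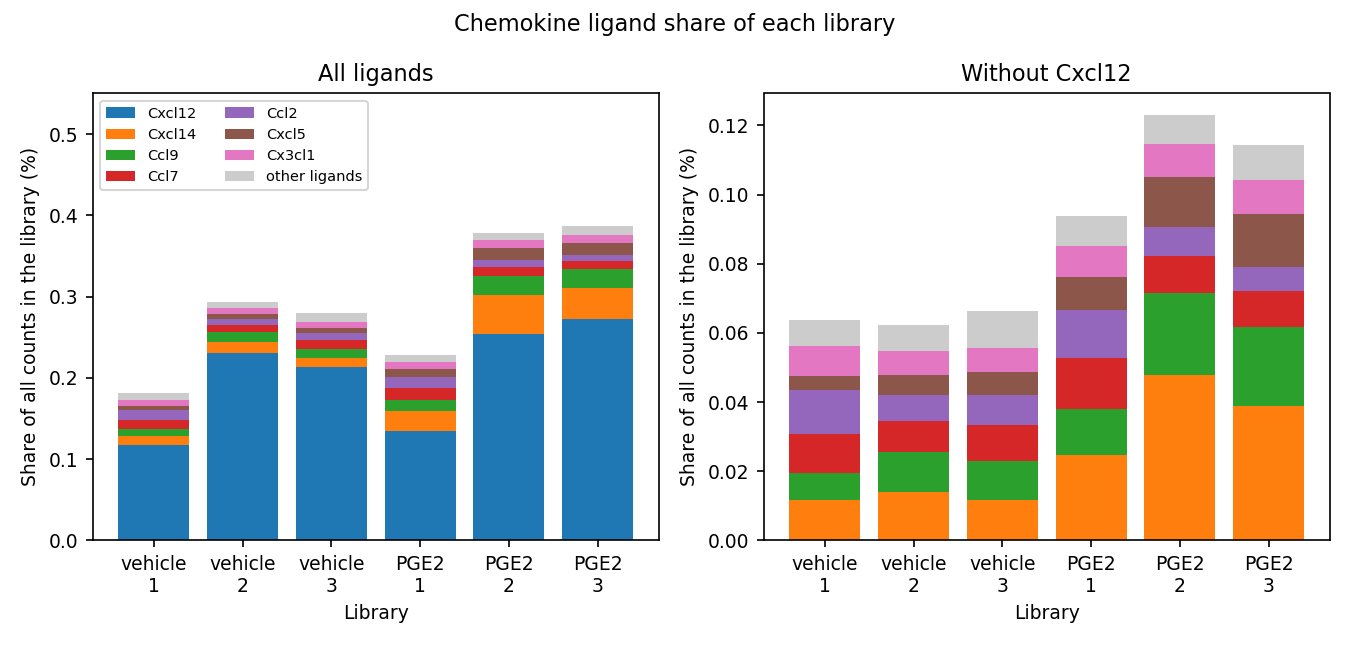
Share of each library's counts taken by chemokine ligand genes, in percent, for all ligands (left) and without Cxcl12 (right), with bars from 0 and stacked by gene. Without Cxcl12 the vehicle libraries reach 0.0624% to 0.0664% and the PGE2 libraries 0.0939% to 0.123%, with Cxcl14, Ccl9 and Cxcl5 widening most.

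Few receptors for these ligands were expressed by the cells themselves. Of 18 signalling receptor genes 7 were at 0 in every library and 1, Ccr1, was tested, at 0.264 and 0.272 CPM in the group means, with a fold change of 0.04 ± 0.487 (edgeR adjusted p = 0.971). Cxcr4, the signalling receptor of Cxcl12, had 1 to 22 counts and was not tested. Of 5 atypical receptors 2 were tested, and Ackr3, which binds and clears Cxcl12, was the abundant receptor gene. Ackr3 was at 23.8, 34.6 and 33.3 CPM with vehicle and 53.4, 69.1 and 59.6 CPM with PGE2. Each PGE2 library lay above each vehicle library, and the paired fit called a rise of 1.00 ± 0.085 (edgeR adjusted p = 9.5e-05). Unpaired, its 0.99 ± 0.160 did not pass (0.0644). Ackr4, which clears Ccl19, Ccl21 and Ccl25, was at 0.894 and 1.51 CPM in the group means and did not pass (0.74 ± 0.483, edgeR adjusted p = 0.427; paired 0.0626). Of the 3 tested receptor genes 0 passed unpaired. At an unadjusted p under 0.05, 1 was higher, as were 1517 of the 15186 genes. DESeq2 had 1 higher, against 2.86% of all genes, and 1 rose in the paired fit, as did 6.91% of all genes.

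Among 14 genes for NF-kappaB subunits, their inhibitors, cofactors and kinases, which control many chemokine genes, 1 rose unpaired and 0 fell. Of all genes 0.211% and 0.132% did. At an unadjusted p under 0.05, 2 were higher and 2 lower, where 1517 and 1532 of the 15186 genes were. DESeq2 had 1 higher and 0 lower, against 2.86% and 3.27% of all genes. In the paired fit 2 rose and 1 fell (14.3% and 7.14%, against 6.91% and 7.51% of all genes), and the list's median log2 fold change was -0.02. Nfkbiz, a nuclear cofactor of NF-kappaB needed for a subset of its targets, rose by 0.71 ± 0.076 (edgeR adjusted p = 0.03). Bcl3, a related nuclear cofactor, rose in the paired fit (0.53, edgeR adjusted p = 0.00214), and the feedback inhibitor Tnfaip3 fell in it (-0.53, 0.0205). Nfkbia, the cytoplasmic inhibitor, was at -0.23 and did not pass in either fit (edgeR adjusted p = 0.154; paired 0.0737), but it passed at -0.36 in the length-corrected paired fit (0.00163).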

How the data were processed

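The authors deposited whole-number counts per gene for 6 libraries, and the submitters' processing notes name the build mm10. Which aligner, counter, strand setting and annotation release were used is not given in the sources used here. Genes kept by filterByExpr (15186) were scaled with TMM factors and tested with edgeR version 4.0.16 (robust quasi-likelihood, Benjamini-Hochberg over all tested genes) in R version 4.3.3. Errors of fold changes are standard errors, and other errors are SD over 3 libraries. Standard errors and intervals of edgeR fold changes were calculated from its F statistic and total degrees of freedom. They include the spread between libraries. Detection limits from 3 counts cover counting error only. Same-numbered libraries deviated together (correlations of 0.621, 0.169 and 0.422, each over the minimum of 0.1), so a paired fit with the number as a block is given. Vehicle library 3 with PGE2 library 2, at 0.252, and vehicle library 2 with PGE2 library 3, at 0.145, also passed that minimum. No library repeated another of its group: chi-square per degree of freedom was at least 19.3 and at most 93.1.

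Alternatives were DESeq2 version 1.42.0, other scalings, no filter, a lowess correction for transcript length (span 0.3) and libraries left out. Positions and lengths are from GENCODE M21, which held 97.5% of identifiers, and promoters from RefSeq. The unpaired and paired fits were also run on simulated counts that had no replicate effect and no length trend. That run cannot say which fit suits these data. Members were taken by symbol alone, but that rule and the lists were chosen with earlier results of these data known. Every tested ligand and receptor is named, as are up to 4 genes of each other list by adjusted p.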

Additional observations from a re-analysis of the deposited data

How the results depend on the processing

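The main count of 1 ligand higher and 0 lower became 5 and 1 with DESeq2, 8 and 1 with the replicate block, 7 and 1 with the block and the length correction, and 0 higher with the length correction alone. Without the filter on low counts 1 ligand was lower. With single libraries left out the unpaired count of higher ligands ran from 0 to 4, reaching 4 without PGE2 library 1 and 0 without any 1 of the other 5. In the paired fit with 1 number left out it ran from 6 to 7, with 1 lower each time. Of the 9 ligands called in the paired fit 6, Cxcl3 among them, were called in each of these 3 reduced fits, which have few residual degrees of freedom. Cxcl14, Ccl7 and Cx3cl1 were not.

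For receptors the unpaired count of 0 higher became 1 without the filter, with DESeq2, with the block, with the block and length correction, without PGE2 library 1 and in each reduced paired fit, and 1 was lower in the paired fit without number 3. For all genes the counts of 32 higher and 20 lower became 143 and 142 without the filter, 435 and 497 with DESeq2, 1049 and 1140 with the replicate block, 9 and 6 with the length correction, and 1339 and 1210 with both. Scaling by library totals gave 34 lower. With single libraries left out they ran from 0 to 85 higher and 0 to 35 lower, and in paired fits without number 1, 2 or 3 they were 669, 489 and 2392 higher and 703, 671 and 2705 lower. The cause of these differences was not tested.

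The log2 ratio of the summed ligand share, 0.398, ran from 0.209 to 0.605 with single libraries left out and was 0.784 without Cxcl12. Low counts limit what can be said of Cxcl3, Cxcl9, Ccl6 and Ccl5.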

Other observations

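Genes for proteins that trim or hold chemokines changed in both directions in the paired fit. Of 14 tested genes 0 passed unpaired in either direction. At an unadjusted p under 0.05, 2 were higher and 2 lower, where 1517 and 1532 of the 15186 genes were. DESeq2 had 0 higher and 1 lower, against 2.86% and 3.27% of all genes. In the paired fit 2 rose and 2 fell (14.3% each, against 6.91% and 7.51% of all genes), or 4 and 3 with the length correction (28.6% and 21.4%, against 8.82% and 7.97%). Sdc4 and Sdc1, heparan sulfate proteoglycans that bind chemokines at the cell surface, rose in the paired fit by 0.39 and 0.32 on the log2 scale (edgeR adjusted p = 0.0173 and 0.0392). Mmp9, a gelatinase that also cleaves several chemokines, fell in it by 1.09 on that scale (edgeR adjusted p = 0.00596), from 4.98 to 2.22 CPM in the group means. Adam17, the sheddase that releases Cx3cl1 from the cell surface, was at -0.26 in the paired fit and did not pass without the length correction (edgeR adjusted p = 0.0615).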
